A study of Mus musculus with 7 samples.

Results

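Rpl3 and its named processed pseudogenes, Rpl3-ps1 and Rpl3-ps2, were followed through the libraries of a mouse hippocampus RNA-seq study. The genes were taken by name from the deposited counts, giving 3 of 38924 gene records and 14 of 359565 exon bins (10 of Rpl3, 3 of Rpl3-ps1 and 1 of Rpl3-ps2). They were chosen by their measured counts in the knockout contrast, where Rpl3 was low and Rpl3-ps1 high, so the values of that contrast are given as a description without a test. The groups were Ammon's horn (AH, the CA fields of the hippocampus) from adult mice homozygous for a deletion of Khdrbs3 (n = 3 libraries), dentate gyrus from adult wild-type mice (n = 1) and AH from adult wild-type mice (n = 3). Khdrbs3, also called Tstar, encodes an RNA-binding splicing regulator. Per the labels, every library belongs to a background in which the Tstar null allele had been backcrossed to C57Bl6 for 8 generations, and no library had a treatment. Polyadenylated RNA was sequenced from TruSeq mRNA libraries. Whether a library is 1 animal or a pool is not stated, so every spread and p-value below measures the difference between libraries.

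RPL3, or uL3, is one of the largest proteins of the 60S ribosomal subunit and reaches into the peptidyl transferase centre, where peptide bonds are made. It joins the pre-60S particle early, and its mRNA is among the abundant, steadily expressed transcripts of most cells. Processed pseudogenes are intronless copies made when an mRNA is reverse transcribed and inserted elsewhere in the genome. Ribosomal protein genes have left many such copies in mammals, and a short read from the parent mRNA can match a young copy as well as the parent gene.

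Rpl3 (ENSMUSG00000060036.7) lies on the minus strand of mm10 chromosome 15 at chr15:80077781-80083406 and has 10 exons. Its start is 10984269 bp beyond the end of Khdrbs3 (chr15:68928420-69093512). Rpl3-ps1 (ENSMUSG00000084349.2, chrX:13202546-13203838) and Rpl3-ps2 (ENSMUSG00000084131.1, chrX:74170653-74171866) both lie on the plus strand of chromosome X. A search of the GENCODE M21 transcripts with the Rpl3 mRNA found 29 Rpl3-like genes on 12 chromosomes with at least 80% identity over at least 1000 bases, 27 of them with a single exon. Of these, 20 had a row in the gene table and 7 matched Rpl3 at 96% or more of the aligned bases.

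Rpl3-ps1 was the closest copy. It differed from Rpl3 at 2 of 1210 aligned bases (99.83% identity), against 10 substitutions and 4 gap bases in Rpl3-ps2 (98.85%), 12 substitutions in Gm5879 (99.01%) and 29 in Gm12816 (97.61%). The differences of Rpl3-ps1 are C137A in exon 2 and T866C in exon 6, with positions counted from 1 at the 5′ end of the 1351-base Rpl3 transcript. Both fall on the third base of a codon (codon 19 and codon 262) and leave the encoded arginine and valine the same. The sequences below, from GENCODE M21 transcripts on GRCm38, are shown because these bases are the only ones in the alignment by which a read of Rpl3 can be told from one of Rpl3-ps1. Capitals mark the bases that differ from Rpl3, and, in the Rpl3 line, the bases that differ in any of the 4 copies.

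Around position 137 the stretches are chr15:80082499-80082559 on the minus strand for Rpl3, chrX:13202598-13202658 on the plus strand for Rpl3-ps1, chrX:74170679-74170739 on the plus strand for Rpl3-ps2, chr6:87766118-87766178 on the minus strand for Gm5879 and chr4:112956200-112956260 on the minus strand for Gm12816. They cover transcript bases 107 to 167, within exon 2.
Rpl3: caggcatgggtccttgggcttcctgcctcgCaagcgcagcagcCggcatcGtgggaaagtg
Rpl3-ps1: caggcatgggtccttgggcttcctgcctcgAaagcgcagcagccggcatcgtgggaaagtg
Rpl3-ps2: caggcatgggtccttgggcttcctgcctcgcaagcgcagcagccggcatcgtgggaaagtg
Gm5879: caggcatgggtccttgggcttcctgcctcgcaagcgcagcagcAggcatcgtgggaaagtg
Gm12816: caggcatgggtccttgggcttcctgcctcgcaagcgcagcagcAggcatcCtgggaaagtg

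Around position 866 they are chr15:80079723-80079783 on the minus strand for Rpl3, chrX:13203327-13203387 on the plus strand for Rpl3-ps1, chrX:74171410-74171470 on the plus strand for Rpl3-ps2, chr6:87765389-87765449 on the minus strand for Gm5879 and chr4:112955471-112955531 on the minus strand for Gm12816. They cover transcript bases 836 to 896, within exon 6.
Rpl3: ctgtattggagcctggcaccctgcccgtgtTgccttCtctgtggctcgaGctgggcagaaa
Rpl3-ps1: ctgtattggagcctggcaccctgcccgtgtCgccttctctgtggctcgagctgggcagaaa
Rpl3-ps2: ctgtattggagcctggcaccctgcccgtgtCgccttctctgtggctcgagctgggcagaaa
Gm5879: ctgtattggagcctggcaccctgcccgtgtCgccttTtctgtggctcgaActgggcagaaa
Gm12816: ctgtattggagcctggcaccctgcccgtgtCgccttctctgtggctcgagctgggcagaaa

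At position 866 no copy carried the base of Rpl3. Of the 28 Rpl3-like genes with a base aligned there, 8 had the C of Rpl3-ps1 and 20 had A. At position 137 the base of Rpl3 was the common one, found in 22 of 28 genes, and 3 had the A of Rpl3-ps1 (Gm11662, Gm28929 and Rpl3-ps1 itself).

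Every library was deep, with 50230733 to 67692326 counts in the gene table and 29698245 to 39904606 reads in exon bins. Values are given as CPM, read counts relative to library totals that were scaled by the trimmed mean of M values (TMM). The targeted gene followed the labels: the second exon bin of Khdrbs3 held 0.0544, 0.0757 and 0.0732% of the gene's bin reads in the knockout libraries, 10.98% in wild-type dentate gyrus and 11.04, 11.5 and 11.7% in wild-type AH. Summed dentate granule cell markers were 114 to 137 CPM in knockout AH, 605 CPM in dentate gyrus and 121 to 146 CPM in wild-type AH, and summed CA1 markers were 481 to 523 CPM in knockout AH, 76.3 CPM in dentate gyrus and 533 to 549 CPM in wild-type AH, as the tissue labels say. CA3 markers summed to 224 to 235 CPM in knockout AH, 269 CPM in dentate gyrus and 215 to 248 CPM in wild-type AH. Oligodendrocyte markers summed to 3239 to 3464 CPM in knockout AH, 1263 CPM in dentate gyrus and 3763 to 3974 CPM in wild-type AH, and microglial markers to 207 to 213 CPM in knockout AH, 208 CPM in dentate gyrus and 219 to 226 CPM in wild-type AH. Choroid plexus markers (8 genes, none at 0 in any library) summed to 794, 20.3 and 737 CPM in knockout replicates 1, 2 and 3, to 266 CPM in dentate gyrus and to 153, 40.3 and 22.6 CPM in wild-type AH replicates 1, 2 and 3. In bulk tissue, fewer cells of a type and less RNA per cell cannot be told apart.

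In the gene table, Rpl3 CPM was lower and CPM of both pseudogenes higher in knockout than in wild-type AH, without overlap. The genes were chosen from this contrast, and the share of all genes without overlap was not computed, so that separation is only a description. Rpl3 had 401, 311 and 389 CPM in the knockout libraries, against 484, 480 and 504 CPM in wild-type AH (23799, 19388 and 19722 counts against 25351, 33123 and 30123). The means were 367 ± 48.6 CPM in the knockout and 489 ± 13.1 CPM in wild type (SD, n = 3 each), and the fitted log2 fold change was -0.41 (SE 0.09). Knockout replicate 2 was the lowest of all 7 libraries.

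Rpl3-ps1 had 128, 163 and 126 CPM in the knockout libraries, against 84.9, 89.6 and 91.4 CPM in wild-type AH (139 ± 20.9 and 88.6 ± 3.32 CPM, SD, n = 3 each, log2 fold change 0.65, SE 0.09). Rpl3-ps2 had 48.9, 59.97 and 44.97 CPM in the knockout libraries, against 36.2, 36.5 and 35.8 CPM in wild-type AH (51.3 ± 7.78 and 36.2 ± 0.380 CPM, log2 fold change 0.50, SE 0.09). For both pseudogenes knockout replicate 2, the lowest for Rpl3, was the highest. Knockout replicate 2 was also the knockout library with the lowest choroid plexus markers, 20.3 CPM against 794 and 737 CPM in the others. The share of counts from mitochondrial genes was 13.4, 14.1 and 11.1% in knockout replicates 1, 2 and 3, against 10.4 to 10.9% in wild-type AH. The part of either in these differences was not tested.

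**Figure D1:**
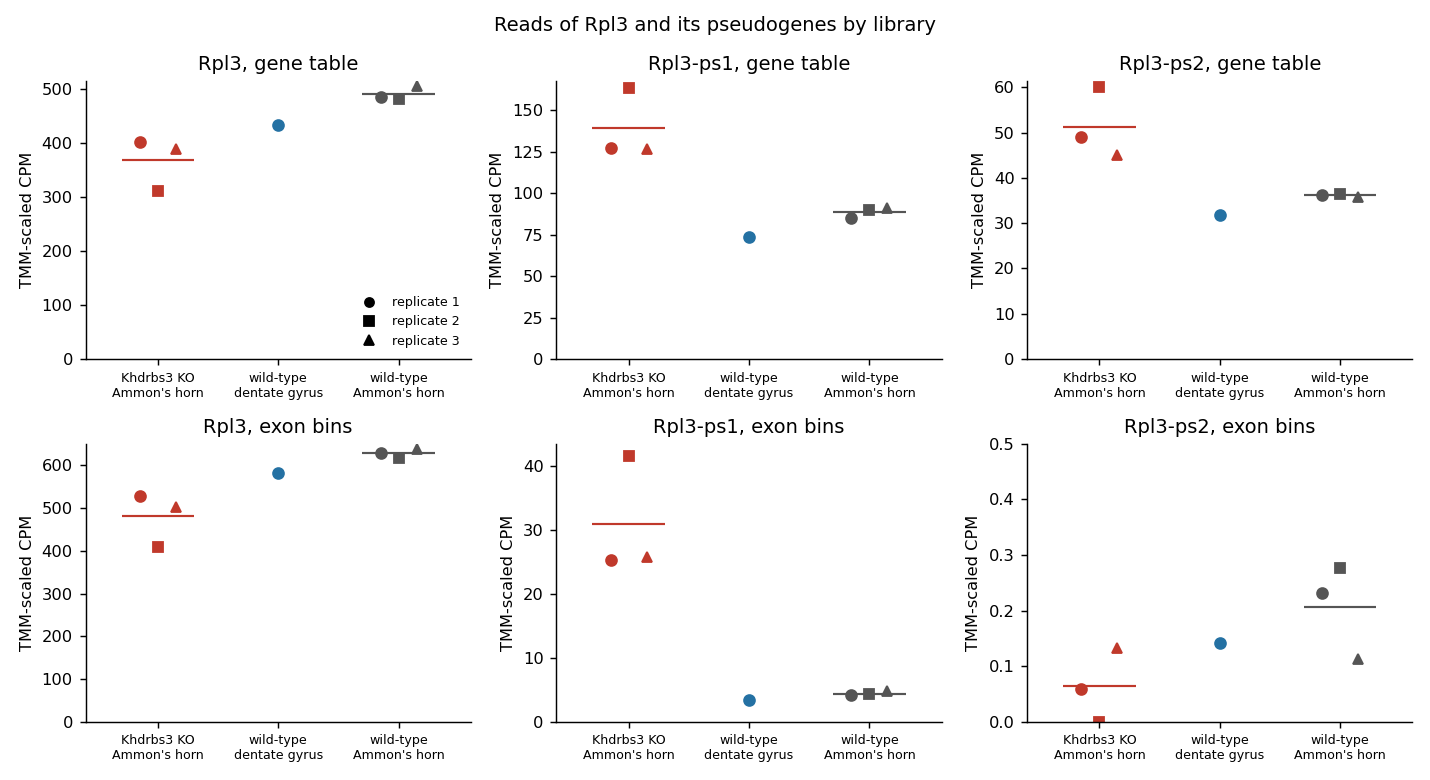
TMM-scaled CPM of Rpl3, Rpl3-ps1 and Rpl3-ps2 in each library (points, shaped by replicate number) from the gene table in the top row and from summed exon bins in the bottom row, with lines at the mean of each group of 3. Knockout replicate 2 (311 CPM of Rpl3 and 163 CPM of Rpl3-ps1 in the gene table) lies farthest from the wild-type AH libraries in all panels.

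The exon bins, which are counted separately from the gene table, gave the same directions for Rpl3 and Rpl3-ps1 with very different sizes. Summed over its 10 bins, Rpl3 had 529, 409 and 503 CPM in the knockout libraries, against 629, 618 and 639 CPM in wild-type AH (480 ± 62.7 and 629 ± 10.7 CPM, SD, n = 3 each, log2 fold change -0.39, SE 0.08). Summed over its 3 bins, Rpl3-ps1 had 25.3, 41.6 and 25.7 CPM in the knockout libraries, against 4.20, 4.31 and 4.74 CPM in wild-type AH (30.9 ± 9.28 and 4.41 ± 0.284 CPM, log2 fold change 2.81, SE 0.19). The Rpl3-ps1 difference was thus 7.01-fold in the bins, against 1.57-fold in the gene table. Rpl3-ps2 did not pass the filter on low counts, having 2, 0 and 4 reads in the knockout libraries, against 7, 11 and 4 in wild-type AH.

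Nearly all Rpl3-ps1 bin reads came from its second bin, with 836, 1483 and 748 reads in the knockout libraries, 119 in dentate gyrus and 124, 170 and 164 in wild-type AH. The first bin held 28, 39 and 21 reads in the knockout libraries and 0 in the dentate gyrus and all wild-type AH libraries, a count that allows up to 3 reads in each. The third bin held 2, 5 and 4 reads in the knockout libraries, 3 in dentate gyrus and 3, 1 and 5 in wild-type AH. The first bin thus had reads in the knockout libraries alone, and the third had few in every library.

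The gene table held many more reads for the copies than the bins did. Among 14488 genes with at least 700 gene-table counts over all libraries, the median was 1.605 gene-table counts per bin read, and Rpl3 had 1.32. Rpl3-ps1 had 8.74, 6.65 and 8.29 gene-table counts per bin read in the knockout libraries, 37.4 in dentate gyrus and 35.0, 36.2 and 32.3 in wild-type AH. Over all libraries together the ratio was 529 for Rpl3-ps2, 486 for Gm12816 and 1460 for Gm5879. How each table treats reads that match several places is not given in the sources used here, so the gene-table values of the copies are uncertain as measures of their own transcripts.

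Along Rpl3 the knockout difference was not even, and the exons that hold the Rpl3-ps1 differences were among those with the lowest ratios. In exon 6 (bin 5, position 866) the knockout libraries had 66.2, 40.9 and 60.9 CPM, against 95.6, 91.6 and 96.8 CPM in wild-type AH, a ratio of means of 0.592. In exon 2 (bin 9, position 137) they had 41.2, 22.3 and 42.0 CPM, against 63.9, 59.0 and 63.5 CPM in wild-type AH, a ratio of 0.566. Exon 1 (bin 10) had the lowest ratio, 0.362, from 84, 34 and 78 reads in the knockout libraries, against 170, 198 and 211 in wild-type AH. Only 4 of its 83 bases aligned with the GENCODE M21 model of Rpl3-ps1, which starts at chrX:13202571. The deposited Rpl3-ps1 gene starts upstream, at chrX:13202546, and those added bases were not aligned. Knockout replicate 2 was the lowest library in every exon of Rpl3, not in these alone. The groups did not overlap in exons 1 to 8, a separation that was not compared with that of all bins.

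The exons on either side of exon 6 came next, at a ratio of 0.735 for exon 5 (bin 6) and 0.739 for exon 7 (bin 4). Exon 3, beside exon 2, was at 0.795, exon 4 at 0.852 and exon 8 at 0.898. The 3′ exons 9 and 10 were at 0.930 and 0.955, and their groups overlapped in CPM. In exon 10 (bin 1) the knockout libraries had 31.4, 27.3 and 29.8 CPM, against 31.0, 31.6 and 30.2 CPM in wild-type AH.

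Sorted by this layout, exons 2 and 6 together had 107, 63.2 and 103 CPM in the knockout libraries, against 159, 151 and 160 CPM in wild-type AH, and held 44.2% of the summed difference over all bins. Exons 1, 5 and 7 held 30.3%, and the other 5 exons 25.5%. These groups of exons were set with the values known.

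Shares within the gene show the same layout without reference to library totals. Exon 6 held 12.5, 9.99 and 12.1% of Rpl3 bin reads in the knockout libraries, against 15.2, 14.8 and 15.1% in wild-type AH. Exon 2 held 7.80, 5.44 and 8.36% in the knockout libraries, against 10.2, 9.55 and 9.94% in wild-type AH. The log2 usage change sets a bin against its whole gene. Its value was -1.10 (SE 0.25) for exon 1, -0.43 (SE 0.16) for exon 2 and -0.37 (SE 0.16) for exon 6. It was 0.32 (SE 0.16) for exon 10, 0.28 (SE 0.16) for exon 9 and 0.23 (SE 0.16) for exon 8, and between -0.06 and 0.16 for the other 4.

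**Figure D2:**
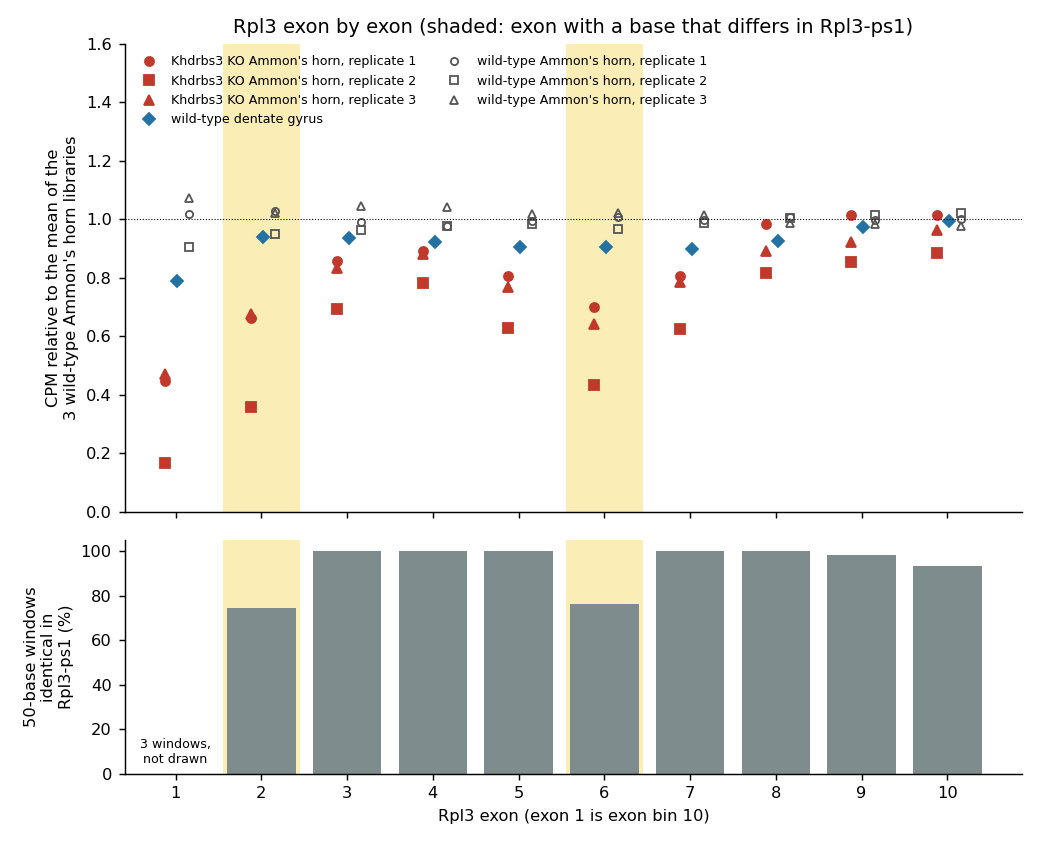
Top, CPM of each Rpl3 exon divided by the mean of the 3 wild-type AH libraries, for the knockout, dentate gyrus and wild-type AH libraries. Bottom, percent of 50-base windows of the coding sequence touching each exon that are identical in Rpl3-ps1. Exons 2 and 6 (shaded) have 74.5% and 76.2% identical windows and knockout ratios of means of 0.566 and 0.592.

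The share of Rpl3 sequence that a read could place only by these differences was small. Of 1163 windows of 50 bases along the coding sequence (bases 81 to 1292), 91.1% were identical in Rpl3-ps1, and of 1113 windows of 100 bases 85.6% were. The share of identical 50-base windows was 74.5% in exon 2, 76.2% in exon 6, 98.2% in exon 9, 93.3% in exon 10, and every window of exons 3, 4, 5, 7 and 8 was identical. The unmatched windows of exons 9 and 10 run past base 1289, where the aligned Rpl3-ps1 model ends, as neither exon holds a substitution. For Rpl3-ps2 the whole-length shares were 58.2% and 29.0%. The lengths were chosen as round values, since the read length is not given in the sources used here.

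The numbers of reads lost from Rpl3 and gained by the pseudogenes were set side by side, as reads and not as levels per length. In the gene table the difference of the means, knockout minus wild-type AH, was -122 CPM for Rpl3, 50.4 CPM for Rpl3-ps1 and 15.1 CPM for Rpl3-ps2. The pseudogene gain equalled 53.6% of the Rpl3 deficit, and 58.4, 55.2 and 46.4% in knockout replicates 1, 2 and 3. The 3 genes together had 577, 535 and 560 CPM in the knockout libraries, against 605, 606 and 631 CPM in wild-type AH, a difference of -56.7 CPM (557 ± 21.6 and 614 ± 14.9 CPM, SD, n = 3 each). Every knockout library was below every wild-type AH library in this total, a difference that was not tested.

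Counting the other 18 Rpl3-like genes of the gene table left the difference of the 3-gene total nearly as it was. They had 59.8, 63.0 and 60.6 CPM in the knockout libraries, against 58.2, 58.6 and 62.0 CPM in wild-type AH, and with them the difference was -55.2 CPM. In the exon bins the gain of the pseudogenes equalled 17.8% of the Rpl3 difference of -148 CPM, and 20.8, 16.9 and 16.9% in knockout replicates 1, 2 and 3. The size of the match thus depends on which table is read, and in neither did the pseudogene gain reach the Rpl3 deficit. Rpl3 and the summed pseudogenes lay on opposite sides of wild-type AH in every knockout library, and knockout replicate 2 was the extreme of both. In the bins that sum was Rpl3-ps1, as the few reads of Rpl3-ps2 changed by -0.143 CPM, on the side of Rpl3. Alignments were not analysed here, and whether reads moved between the genes was not tested.

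**Figure D3:**
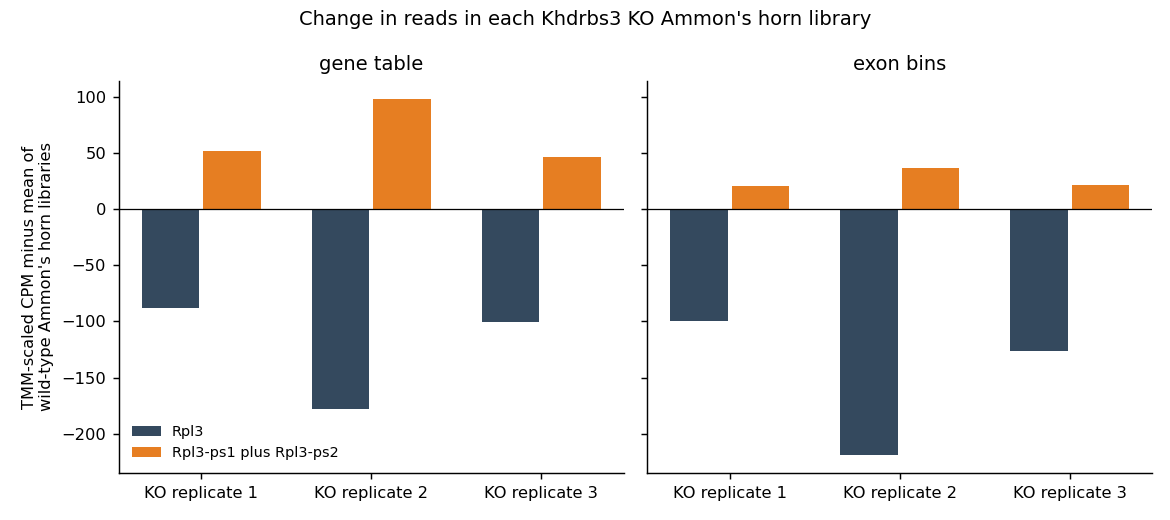
TMM-scaled CPM in each knockout AH library minus the mean of the 3 wild-type AH libraries, for Rpl3 and for the 2 pseudogenes summed, in the gene table on the left and in exon bins on the right. In knockout replicate 2 the bars are at -178 CPM for Rpl3 and 98.3 CPM for the pseudogenes in the gene table, and at -219 and 37.0 CPM in the bins.

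As a share of the reads of all 3 genes, the pseudogenes held 30.6, 41.7 and 30.6% in the knockout libraries, 19.6% in dentate gyrus and 20.02, 20.8 and 20.1% in wild-type AH by the gene table. Their share of bin reads was 4.59, 9.22 and 4.89% in the knockout libraries, 0.614% in dentate gyrus (95% Clopper-Pearson interval 0.512 to 0.731%) and 0.699, 0.738 and 0.753% in wild-type AH. The widest wild-type AH interval, in replicate 1, ran from 0.586 to 0.827%. The intervals cover counting error only. Each knockout library lay above every wild-type library in both tables. As the genes were chosen from the knockout contrast, that separation is only a description. The dentate gyrus library lay just below the wild-type AH range.

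**Figure D4:**
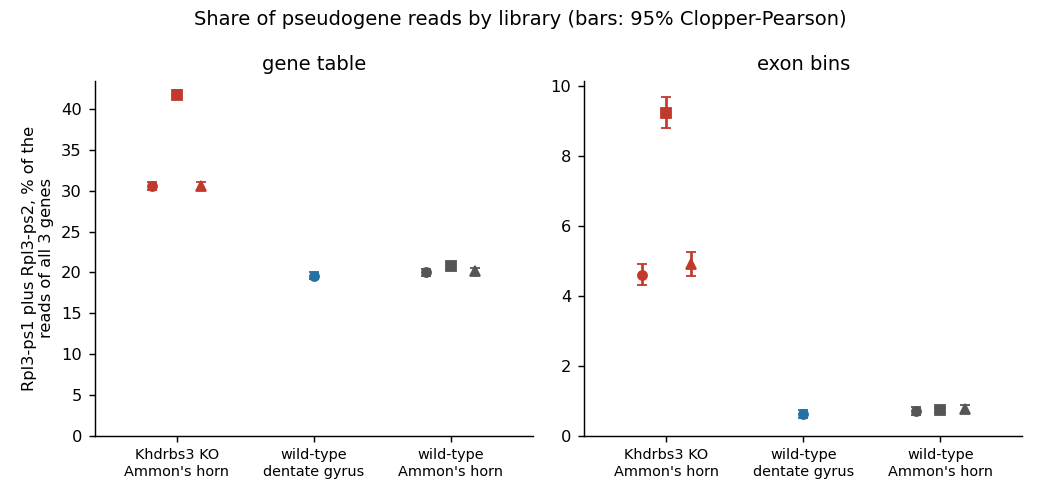
Percent of the reads of Rpl3, Rpl3-ps1 and Rpl3-ps2 that were counted to the pseudogenes in each library, from the gene table on the left and exon bins on the right, with 95% Clopper-Pearson bars. Knockout libraries lie between 30.6% and 41.7% in the gene table, above 19.6% in dentate gyrus and at most 20.8% in wild-type AH.

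The dentate gyrus library played no part in the choice of genes. Its contrast, however, used the same wild-type AH libraries as the knockout contrast from which the genes were chosen. The dentate gyrus tests of these genes are therefore not independent of that choice. In dentate gyrus Rpl3 and its pseudogenes had lower values together, none past the test. In the gene table Rpl3 had 432 CPM in the dentate gyrus library, against 480 to 504 CPM in wild-type AH (log2 fold change -0.18, SE 0.12, 95% interval -0.45 to 0.09, edgeR adjusted p = 0.337). Rpl3-ps1 had 73.5 CPM in dentate gyrus, against 84.9 to 91.4 CPM in wild-type AH (-0.27, SE 0.13, interval -0.56 to 0.01, edgeR adjusted p = 0.167). Rpl3-ps2 had 31.9 CPM in dentate gyrus, against 35.8 to 36.5 CPM in wild-type AH (-0.18, SE 0.13, interval -0.47 to 0.10, edgeR adjusted p = 0.360). With 1 dentate gyrus library, whose spread is taken from the AH groups, 22% of the 24486 genes tested were called, that is, had an adjusted p under 0.05. Without knockout replicate 2 in the fit, which narrows the shared spread, the Rpl3-ps1 difference of -0.27 passed with an adjusted p of 0.0352 by edgeR.

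By exon bins, Rpl3 had 583 CPM in dentate gyrus, against 618 to 639 CPM in wild-type AH (-0.11, SE 0.11, interval -0.35 to 0.13, edgeR adjusted p = 0.492). Rpl3-ps1 had 3.46 CPM in dentate gyrus, against 4.20 to 4.74 CPM in wild-type AH (-0.35, SE 0.31, interval -1.02 to 0.31, edgeR adjusted p = 0.424), where 29.3% of 16263 genes were called. Rpl3-ps2 had 5 reads in the dentate gyrus library.

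In dentate gyrus the ratios of the Rpl3 exons spanned a narrower range than in the knockout, a difference that was not tested. Ratios to the wild-type AH mean ran from 0.899 in exon 7 to 0.995 in exon 10, apart from 0.788 in exon 1, which rests on 153 reads in dentate gyrus, against 170, 198 and 211 in wild-type AH. Exon 6 was at 0.905 and exon 2 at 0.941. In usage, exon 1 had a log2 change of -0.23 (SE 0.32), and the other 9 exons had changes between -0.04 and 0.10. None of the 10 bins passed the edgeR test by adjusted p, nor at an unadjusted p under 0.05, and 0.213% of 169072 bins were called. The 3 genes together had 537 CPM in dentate gyrus, against 605, 606 and 631 CPM in wild-type AH, a difference of -76.9 CPM in the gene table and of -47.0 CPM in the bins. With plain library totals in place of TMM these differences were -40.7 and -18.5 CPM. Rpl3 was thus ordered wild-type AH, dentate gyrus, knockout AH from high to low in both tables. The dentate gyrus and wild-type AH were not separated by the test, and the place of the knockout is a description without a test.

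Other close copies did not all follow Rpl3-ps1. Gm12816 had 24.7, 30.1 and 22.7 CPM in the knockout libraries, against 15.4, 16.3 and 16.6 CPM in wild-type AH (log2 fold change 0.69, SE 0.10). Gm5879, though nearer to Rpl3 in sequence than Gm12816, had 32.7, 29.6 and 33.6 CPM in the knockout libraries, against 39.2, 39.4 and 39.8 CPM in wild-type AH (-0.30, SE 0.06). Gm5879 thus lay on the side of Rpl3 and Gm12816 on that of the named pseudogenes, although both carry the C at position 866 and neither the A at position 137. Apart from Rpl3-ps1 and Rpl3-ps2, 15 Rpl3-like genes were tested in the knockout contrast, Gm12816 and Gm5879 included. Of these 15, 5 had a positive log2 fold change, against 50.5% of all genes tested. By edgeR 1 was called, higher, where 0.0745% of all genes were called. In dentate gyrus Gm5879 had 31.6 CPM, lower than wild-type AH by the test (-0.32, SE 0.09, edgeR adjusted p = 0.0235), and Gm12816 had 13.6 CPM (-0.24, SE 0.15, edgeR adjusted p = 0.281). Apart from these copies, the other 16 Rpl3-like genes summed to 2.43, 3.29 and 4.32 CPM in the knockout libraries, 4.04 CPM in dentate gyrus and 3.63, 2.93 and 5.62 CPM in wild-type AH.

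**Figure D5:**
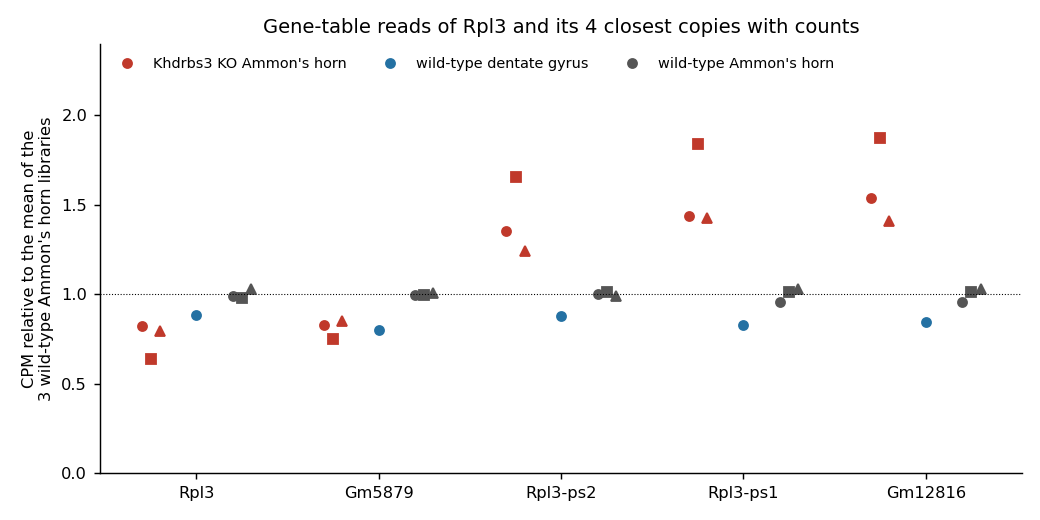
Gene-table CPM of Rpl3 and the 4 copies closest to it in sequence that have counts, divided by the mean of the 3 wild-type AH libraries. Points are libraries of knockout AH, dentate gyrus and wild-type AH. Rpl3-ps2, Rpl3-ps1 and Gm12816 lie above the wild-type libraries in the knockout, Rpl3 and Gm5879 below them.

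Across the 7 libraries, the 2 genes whose centred log2 CPM profile was nearest to that of Rpl3-ps1 were other copies. Among 13229 genes with a mean of at least 5 CPM, Gm12816 came first with a root-mean-square difference of 0.0323 log2 units and Rpl3-ps2 second with 0.0999. Skint6 (0.152), mt-Nd2 (0.160) and Ctgf (0.171), which are not Rpl3-like, followed. Skint6 is on chromosome 4, as is Gm12816. Skint6 had 37.7, 42.1 and 34.1 CPM in the knockout libraries, where Gm12816 had 24.7, 30.1 and 22.7 CPM. In dentate gyrus they had 26.6 and 13.6 CPM. In wild-type AH Skint6 had 27.5, 26.8 and 28.5 CPM, where Gm12816 had 15.4, 16.3 and 16.6 CPM. Whether the counts of these 2 genes share reads was not tested. The genes nearest to Rpl3 were Ptp4a3 (0.0913), 4933429H19Rik (0.102), Cbx7 (0.104), Tst (0.108) and Gm5879 (0.108). Ptp4a3, Cbx7 and Tst are on chromosome 15, as are Rpl3 and Khdrbs3.

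Genes that act with RPL3 had log2 fold changes within 0.17 of 0 in the knockout contrast, apart from the rarely counted Rpl3l. In that contrast edgeR called 0.0745% of the 22830 genes tested, with 1914 at an unadjusted p under 0.05. Of these 6 genes it called 0, with 0 at an unadjusted p under 0.05 and 0 by DESeq2, and at that background 0 of 6 is no result about them. Grwd1, the counterpart of the yeast chaperone that escorts Rpl3 to the ribosome, had a log2 fold change of -0.16 (SE 0.08), and Mettl18, whose human protein methylates a histidine of RPL3, of 0.17 (SE 0.13). Npm1, a nucleolar histone and ribosome chaperone, was at -0.01 (SE 0.06). Hnrnph1 and Khsrp, whose human proteins are reported to act on splicing of RPL3 pre-mRNA, were at 0.01 (SE 0.05) and -0.02 (SE 0.05). Rpl3l, the muscle paralogue of Rpl3, was below 1 CPM in every library, with 0.135, 0.241 and 0.631 CPM in the knockout libraries, against 0.229, 0.203 and 0.167 CPM in wild-type AH.

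In dentate gyrus, Hnrnph1 and Khsrp were higher than in wild-type AH, and the other 4 did not pass. That is 2 of 6, where 11.2% of all genes tested were called higher. Hnrnph1 had 141 CPM in dentate gyrus, against 98.6 to 109 CPM in wild-type AH (log2 fold change 0.42, SE 0.08, edgeR adjusted p = 0.00274). Khsrp had 65.2 CPM in dentate gyrus, against 51.3 to 53.4 CPM in wild-type AH (0.31, SE 0.07, edgeR adjusted p = 0.00835). The small nucleolar RNA genes Snord83b and Gm22077, which lie within Rpl3 on its strand, had 0 to 11 counts per library and were not compared.

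The rest of the 60S subunit set the Rpl3 values in context. Of 50 other 60S ribosomal protein genes tested in the knockout, edgeR called 0, where 0.0745% of all genes were called. At an unadjusted p under 0.05 it had 0 higher and 14 lower, where 1914 of all 22830 genes were under it, and DESeq2 called 2, both lower. Their median log2 fold change was -0.09 with a range of -0.24 to 0.71, against a median of 0.00 over all genes. The -0.41 of Rpl3 lay outside that range, but Rpl3 was chosen for its low value in this contrast, so its place is only a description. The highest value belonged to the rarely counted Rpl3l. In dentate gyrus 28 of 50 were lower and 0 higher by edgeR, where 10.9% of all genes were called lower, among them Rpl31 (-0.52, SE 0.09), Rpl26 (-0.51, SE 0.08) and Rplp1 (-0.51, SE 0.08), all structural proteins of the subunit or its stalk. Rpl3 itself was not among those called.

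Pseudogenes of other ribosomal protein genes were counted by the same rule on names. Of 159 tested in the knockout, edgeR called 0, where 0.0745% of all genes were called. At an unadjusted p under 0.05 it had 4 higher and 21 lower, where 1914 of all 22830 genes were under it, and DESeq2 called 2, both lower. Their median log2 fold change was -0.13, and 39 of 159 were positive, against 50.5% of all genes. The 0.65 and 0.50 of Rpl3-ps1 and Rpl3-ps2 were on the other side of 0 from that median. Both were chosen from this same contrast, so this too is only a description. In dentate gyrus 23 of 176 were lower by edgeR, a share near the 10.9% of all genes called lower, and 0 were higher, where 11.2% of all genes were.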

How the data were processed

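The members and gene lists were chosen with earlier results of these data known. Raw counts per gene record and raw counts per exon bin (DEXSeq format) were deposited by the authors. The submitters' processing notes name mm10, bedtools 2.17.0, DESeq2 1.0.19, TopHat2 2.0.8b and Trim Galore 0.3.5, without their roles. The program and settings that made each count, and their handling of strand and of reads matching several places, are not given in the sources used here. Groups came from the labels. Replicate numbers only name libraries.

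Counts were fitted with edgeR 4.0.16 (quasi-likelihood, TMM, low counts removed by filterByExpr, Benjamini-Hochberg over all features). The knockout contrast used 6 libraries and the dentate gyrus contrast all 7. A feature is called at an adjusted p under 0.05. Bin usage, over bins reaching 10 reads in 3 or more libraries, used diffSpliceDGE. SE is the log2 fold change divided by the root of F. DESeq2 1.42.0, RLE scaling, no filter, removal of mitochondrial genes, another set of libraries and leaving out each library were alternatives. The scripts were tested on simulated data.

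The deposited bins carry no coordinates. They were matched to exons by number, ascending along the chromosome, an order that fitted 90 of 92 single-transcript minus-strand genes. Copies were found with BLAST 2.17.0+ and aligned with Biopython 1.88 to GENCODE M21. Its Rpl3-ps1 model differs from the deposited one, so those bins are named by number.

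Genes named with values were the members and their bins, the genes acting with RPL3, Khdrbs3, up to 4 called 60S genes per direction (also the rule for the other ribosomal pseudogenes, given as counts alone), and the 5 genes nearest in profile (0.5 CPM added before the log). Rpl3-like genes were described because of their sequence. The values of 1 gene that this rule names are not reported here.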

Additional observations from a re-analysis of the deposited data

How the results depend on the processing

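The fitted directions of Rpl3, Rpl3-ps1 and Rpl3-ps2 in the gene table, and of Rpl3 and Rpl3-ps1 in the bins, held under every alternative run. Without each library in turn, the knockout log2 fold change ran from -0.48 to -0.31 for Rpl3, from 0.52 to 0.71 for Rpl3-ps1 and from 0.38 to 0.59 for Rpl3-ps2 in the gene table, and from -0.46 to -0.29 for Rpl3 and from 2.53 to 2.94 for Rpl3-ps1 in the bins. In dentate gyrus, Rpl3-ps1 ran from -0.30 to -0.25 in the gene table (adjusted p 0.0352 to 0.239 by edgeR and DESeq2 over all alternatives). Gene-table calls in the knockout, 17 in all, came to 119 with DESeq2, 4 without mitochondrial genes and 11 to 55 with a library left out. They were 55 without knockout replicate 2, and 11 without knockout replicate 1 or wild-type replicate 2. Bin-sum calls, 8 in all, came to 122 with no filter, 40 with DESeq2, 5 without mitochondrial genes and 4 to 42 with a library left out (42 without knockout replicate 2, 5 without knockout replicate 1, 4 without wild-type replicate 1). Usage calls with a library left out were 5 to 8 in the knockout (8 without knockout replicate 3 or wild-type replicate 2) and 196 to 512 in dentate gyrus (196 without wild-type replicate 1). With plain library totals, the 3-gene difference of dentate gyrus from wild-type Ammon's horn was -40.7 CPM in the gene table and -18.5 CPM in the bins, smaller than with TMM. With a library left out, the dentate gyrus usage change crossed 0 for exon 8 of Rpl3 (-0.0242 to 0.0132, positive without wild-type replicate 1 or 2), exon 4 (-0.0195 to 0.0159, positive without wild-type replicate 3), exon 2 (-0.00187 to 0.0431, negative without wild-type replicate 2) and bin 2 of Rpl3-ps1 (-0.00268 to 0.000365, positive without wild-type replicate 1). The cause of these shifts was not tested. No paired analysis was possible because the labels give no replicate numbers. Rpl3-ps2 had too few bin reads for a fit with the filter. Depth limits exon 1 and the first bin of Rpl3-ps1.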
